A study of Homo sapiens with 12 samples.

Results

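G-quadruplexes, folds of guanine-rich DNA built from stacked guanine tetrads, were mapped by BG4 ChIP-seq in HEK293 cells, and the signal at the annotated 5′ ends of small RNA genes is described here. Of 58344 nuclear transcription start site (TSS) windows among 58381 windows in all, 2701 were taken: 1832 of miRNA genes, 786 of snoRNA genes and 83 of snRNA genes. Each window was 400 bp long and centred on an annotated TSS. A window was taken when the RefSeq gene 5′ end nearest to its centre on the same strand, within 200 bp, belonged to one of these classes, and 46 such windows that also matched a protein-coding gene were left out. The windows stood for 2644 genes, and 2491 of them lay exactly at the RefSeq 5′ end. The rule used positions and gene classes, and no peak or read count.

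HEK293 is an established line of human embryonic kidney cells, and a DNA readout gave no markers with which to check that label. All libraries analysed here came from formaldehyde-fixed cells of this line, whose chromatin was precipitated with BG4, an antibody fragment that binds G-quadruplexes. The 3 biological replicates (BioRep1, BioRep2 and BioRep3) had 3 technical ChIP libraries each, 9 in all, and the peaks came as 1 list for each replicate. The series also lists an input for each biological replicate. No input was analysed here, so no level was set against chromatin handled without the antibody.

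MicroRNAs are cut from hairpins in longer transcripts, and many hairpins lie in introns or exons of host genes, so the annotated 5′ end of a miRNA gene is usually the end of a hairpin and not the place where RNA polymerase starts. Most human snoRNAs, which guide the chemical modification of ribosomal RNA, are likewise released from introns of host genes. The snRNAs, the RNA parts of the spliceosome, are for the most part transcribed from compact promoters of their own.

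The mature miRNAs of the windows with the highest read density among those with a peak in all 3 lists are given first, from RefSeq (GRCh38.p14), because they show how guanine-rich some of these genes are. Each is written 5′ to 3′, and the capitals mark the seed, bases 2 to 8, with which a miRNA pairs to its targets. The miRNAs of MIR6090, MIR3180-4 and MIR3180-5 were added after their values were seen, the last 2 because they share 1 mature sequence. The window counted for MIR4444-1 is annotated to another gene and does not hold the mature miR-4444.
hsa-miR-3175: cGGGGAGAgaacgcagugacgu
hsa-miR-4444: cUCGAGUUggaagaggcg
hsa-miR-658: gGCGGAGGgaaguagguccguuggu
hsa-miR-4738-3p: uGAAACUGgagcgccuggagga
hsa-miR-4738-5p: aCCAGCGCguuuucaguuucau
hsa-miR-4519: cAGCAGUGcgcagggcug
hsa-miR-4674: cUGGGCUCgggacgcgcggcu
hsa-miR-3178: gGGGCGCGgccggaucg
hsa-miR-762: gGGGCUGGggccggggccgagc
hsa-miR-6090: gGGGAGCGaggggcggggc
hsa-miR-3180: uGGGGCGGagcuuccggag
MIR639 and MIR1538 belong to the same group. None of the miRNAs printed here shared a seed with another of them. In the RefSeq table the seed of miR-3180 was held by 4 mature names, that of miR-762 by 4 and that of miR-3178 by 2, their own names included. Guanine made up 14 of the 22 bases of miR-762 and 14 of the 19 of miR-6090, but 4 of the 22 of miR-4738-5p.

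Promoters of 4 other genes are shown because the peaks described further on lie at them, and 3 of the 4 hold the mature sequence of one of these miRNAs: those of ANKRD54, HNRNPA3 and NOTCH1. Each stretch runs from 250 bases before to 50 bases after a RefSeq start (GRCh38.p14), written 5′ to 3′ on the strand of the gene named. In the first pair the capitals mark the mature miRNA sequence, found on the same strand.
ANKRD54, holding miR-658, chr22:37844285-37844584, minus strand: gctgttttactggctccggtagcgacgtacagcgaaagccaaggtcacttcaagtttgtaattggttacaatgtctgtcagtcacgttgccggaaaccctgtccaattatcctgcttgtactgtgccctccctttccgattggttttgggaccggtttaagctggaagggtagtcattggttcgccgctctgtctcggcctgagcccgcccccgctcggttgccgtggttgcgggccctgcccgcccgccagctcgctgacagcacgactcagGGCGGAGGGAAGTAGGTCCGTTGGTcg
HNRNPA3, holding miR-4444, chr2:177212544-177212843, plus strand: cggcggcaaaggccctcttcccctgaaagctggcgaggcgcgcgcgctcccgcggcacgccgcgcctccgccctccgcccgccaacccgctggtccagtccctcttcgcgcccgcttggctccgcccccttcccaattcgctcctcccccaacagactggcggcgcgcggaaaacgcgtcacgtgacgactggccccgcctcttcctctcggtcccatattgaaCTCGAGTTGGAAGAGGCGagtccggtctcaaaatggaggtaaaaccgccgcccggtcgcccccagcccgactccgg
In the second pair the capitals mark matches to a G-quadruplex motif, 4 runs of GGG or longer separated by loops of 1 to 7 bases of any kind, on either strand, with overlapping matches joined.
NOTCH1, beside MIR4674, chr9:136545999-136546298, minus strand: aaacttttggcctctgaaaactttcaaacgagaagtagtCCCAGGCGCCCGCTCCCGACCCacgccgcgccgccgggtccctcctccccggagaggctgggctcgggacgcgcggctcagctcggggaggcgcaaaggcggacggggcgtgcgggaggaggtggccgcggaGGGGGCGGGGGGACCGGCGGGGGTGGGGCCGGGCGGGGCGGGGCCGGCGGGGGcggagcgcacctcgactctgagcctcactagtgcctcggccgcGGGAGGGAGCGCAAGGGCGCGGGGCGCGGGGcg
BCL7C, beside MIR762, chr16:30894028-30894327, minus strand: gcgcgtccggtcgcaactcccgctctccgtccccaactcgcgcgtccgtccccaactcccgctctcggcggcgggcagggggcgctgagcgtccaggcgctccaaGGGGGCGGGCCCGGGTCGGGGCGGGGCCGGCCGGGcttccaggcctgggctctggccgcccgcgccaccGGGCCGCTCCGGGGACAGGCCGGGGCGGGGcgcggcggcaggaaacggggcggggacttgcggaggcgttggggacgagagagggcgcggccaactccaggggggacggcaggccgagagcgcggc
Motif matches covered 106 of the 300 bases of the NOTCH1 stretch and lay on both strands. In the BCL7C stretch they covered 65 bases, on the strand of the gene. The ANKRD54 and HNRNPA3 stretches held no match, and a match or its absence is a property of the letters and not of a fold.

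Peaks were rare at small RNA genes. A peak in all 3 lists was found in 23 of the 2701 windows (0.852%, 95% Wilson interval 0.568 to 1.27%), against 8.89% of all nuclear windows. All but 1 of them were miRNA windows: 22 of 1832 (1.20%, 0.794 to 1.81%). They include the window counted for MIR4444-1, which is annotated to another gene and described further on. Among snoRNA windows 1 of 786 had such a peak (0.127%, 0.0225 to 0.717%). None of the 83 snRNA windows did, which allows a share of up to 3.61%. The same share was 25.7% of 14211 protein-coding windows, 9.33% of 5346 long non-coding RNA (lncRNA) windows and 0.513% of 13658 pseudogene windows, so that miRNA windows stood closer to pseudogenes than to either of the others. Wilson intervals here cover counting error only.

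The 3 lists differed in what they held. In the BioRep1 list 24 small RNA windows had a peak, in the BioRep2 list 49 and in the BioRep3 list 42, where all nuclear windows gave 9.45%, 13.5% and 14.6%. By class these were 22, 38 and 38 miRNA windows, 2, 4 and 2 snoRNA windows, and 0, 7 and 2 snRNA windows. All 22 miRNA windows of the BioRep1 list were thus windows with a peak in all 3. A peak in any list was found in 56 windows (2.07%, 1.60 to 2.68%), against 15.8% of all nuclear windows. They were 44 miRNA, 4 snoRNA and 8 snRNA windows, and the last were 9.64% of their class (4.97 to 17.9%). A peak in 2 lists was found in 13 windows and in 1 list in 20.

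**Figure D1:**
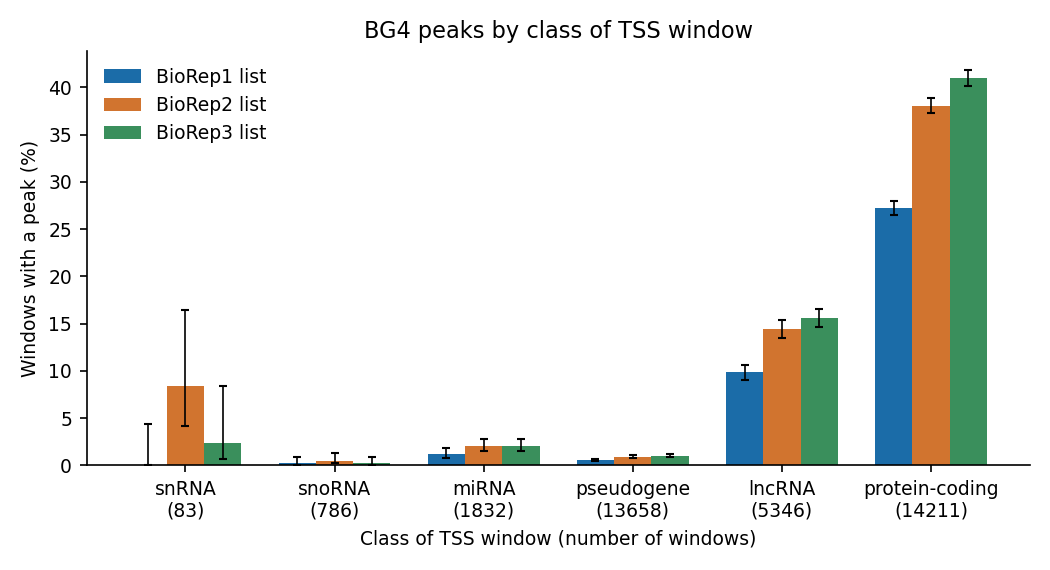
Share of TSS windows with a peak (y axis, %) in each of the 3 lists, by class of window (x axis, with the number of windows), with 95% Wilson intervals as error bars. The bars of miRNA windows lie at 1.20%, 2.07% and 2.07%, those of protein-coding windows at 27.2%, 38.1% and 41.0%, and the wide bars of snRNA windows rest on 83 windows.

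Read density differed less between the classes than peaks did. Reads in windows numbered 372030 to 846114 per library, and small RNA windows took 2.41 to 2.77% of them. That share was 2.69 to 2.77% in the BioRep1 libraries, 2.56 to 2.58% in BioRep2 and 2.41 to 2.51% in BioRep3, so the replicates did not overlap. A single read was worth 1.18 to 2.69 CPM, counts scaled to 1000000 reads in windows, which is the precision of a low window. The median small RNA window had 8.16 ± 0.428 CPM (SD, n = 3 biological replicates), the median miRNA window 8.48 ± 0.384, the median snoRNA window 7.27 ± 0.444 and the median snRNA window 8.90 ± 0.624. Protein-coding windows had a median of 25.5 ± 0.482 CPM, lncRNA windows 9.93 ± 0.538 and pseudogene windows 6.85 ± 0.478. Among windows without any peak the medians were closer, 8.06 CPM for small RNA genes, 8.71 for lncRNA genes and 10.7 for protein-coding genes. Among the 3 small RNA classes, snRNA windows had the widest quartiles. Their quartiles lay at 1.38 and 19.9 CPM, while those of miRNA windows lay at 6.31 and 11.4 CPM and those of snoRNA windows at 4.90 and 10.2 CPM.

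The 23 windows with a peak in all 3 lists ranged from 31.0 to 109 CPM, with a median of 63.5 ± 4.40 CPM (SD, n = 3). Protein-coding windows with a peak in all 3 lists had a median of 64.7 ± 3.33 CPM and lncRNA windows 61.2 ± 3.47 CPM, so the median of small RNA windows with such a peak lay within 1 SD of both. Windows with a peak in 2 lists had a median of 44.8 ± 4.44 CPM, those with a peak in 1 list 30.3 ± 2.39 CPM and those with none 8.06 ± 0.379 CPM. The groups overlapped: 11 windows without a peak exceeded the lowest window with 3. Peaks and counts come from the same reads, so this order is a description.

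**Figure D2:**
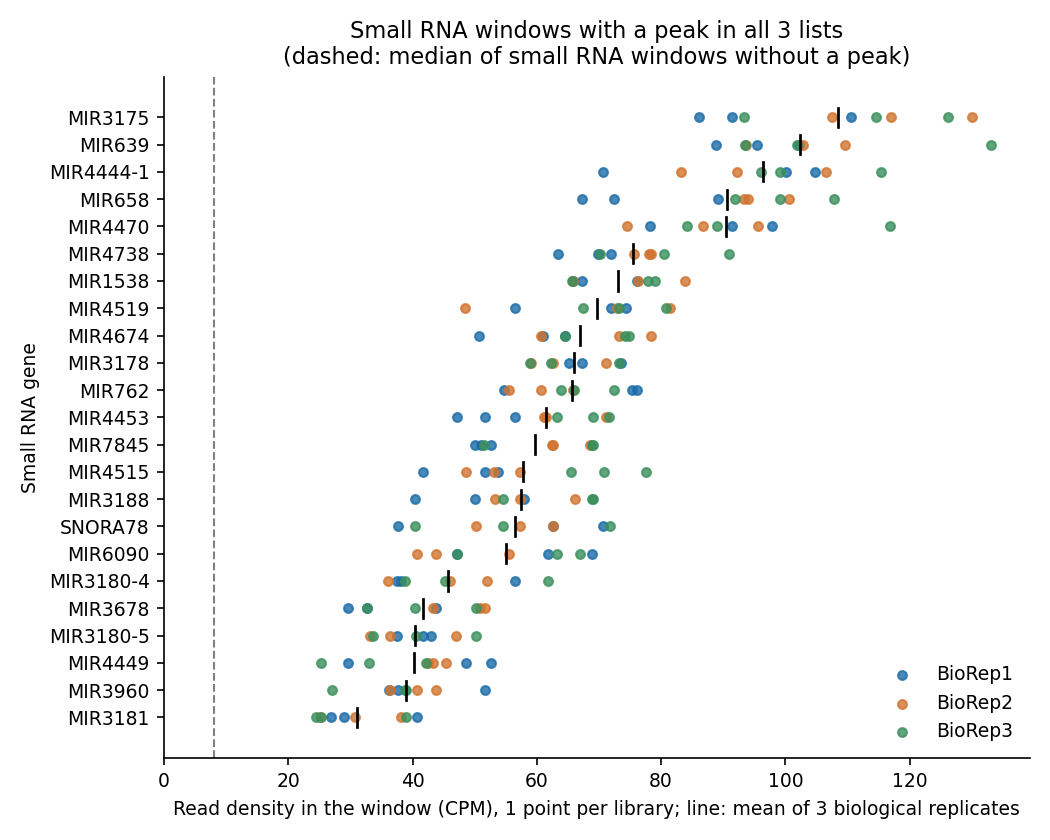
Read density (x axis, CPM) of the 23 small RNA windows with a peak in all 3 lists (y axis, by gene), 1 point per library coloured by biological replicate, with the mean of the 3 biological replicates as a black line. All points lie right of the dashed line, the median of small RNA windows without a peak at 8.06 CPM, and the means run from 31.0 CPM at MIR3181 to 109 CPM at MIR3175.

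MIR3175, on chromosome 15 inside CHD2, a gene for a chromatin remodeller, was the densest window. Its libraries held 55, 34 and 61 reads in BioRep1, 62, 99 and 83 in BioRep2 and 81, 65 and 68 in BioRep3, which gave 109 ± 11.4 CPM (SD, n = 3). The lowest library, at 86.1 CPM, was still above the mean of every other small RNA window except MIR639, MIR4444-1, MIR658 and MIR4470. The nearest window of another gene, that of CHD2, lay 4210 bp away, and the peaks covered 290, 386 and 376 bp of the 400 bp window. MIR3175 was thus the case with the strongest signal and no other annotated start close by.

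MIR6090, on chromosome 11 in the body of ETS1, was the other window for which no start of another gene was found within 1 kb. ETS1 is a transcription factor gene whose strand the tables used here did not give. Its own starts were therefore not placed, and whether one lies near MIR6090 was not tested. The MIR6090 libraries ranged from 40.7 to 68.9 CPM with a median of 55.5, and the mean was 55.0 ± 7.24 CPM (SD, n = 3). The nearest window of another gene was 3752 bp away. BioRep1 had 2 peaks in the window and the other replicates 1 each.

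MIR658 and MIR762 had no window of another gene within 1 kb but did have a RefSeq start. MIR658 lay 37 bp before a start of ANKRD54, a gene for an ankyrin repeat protein, and the end of the ANKRD54 stretch shown above holds its mature sequence. Its libraries held 25 to 79 reads, and its mean was 90.6 ± 12.5 CPM, lowest in BioRep1 at 76.3 CPM against 96.0 and 99.6 CPM in the others. MIR762 faced a start of BCL7C, a gene for a subunit of SWI/SNF chromatin remodelling complexes, 174 bp downstream on the opposite strand. Its mean was 65.6 ± 4.32 CPM, and its peaks covered 85, 101 and 98 bp at the end of the window nearest to BCL7C. All 300 bases of the BCL7C stretch lay in peaks of all 3 lists, while only 76 of them were shared with the MIR762 window.

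The other 19 windows, 82.6% of the 23 (62.9 to 93.0%), had the TSS window of another gene that is not a small RNA gene within 1 kb. Among windows without a peak that share was 269 of 2645, or 10.2% (9.08 to 11.4%). It was 10 of 13 for windows with a peak in 2 lists and 13 of 20 for windows with a peak in 1. In 15 of the 23 windows a peak also touched a neighbour's window, and the same number of windows overlapped one. Of the 77 peaks in the 23 windows, 51 touched a neighbour's window, and of the 64 peaks with a neighbour within 1 kb, 32 had their midpoint nearer to the neighbour's TSS than to that of the small RNA gene. Of all 56 windows with a peak in any list, 42 had a neighbour within 1 kb. A RefSeq start within 1 kb was found for 6 more, and neither was found for 8.

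**Figure D3:**
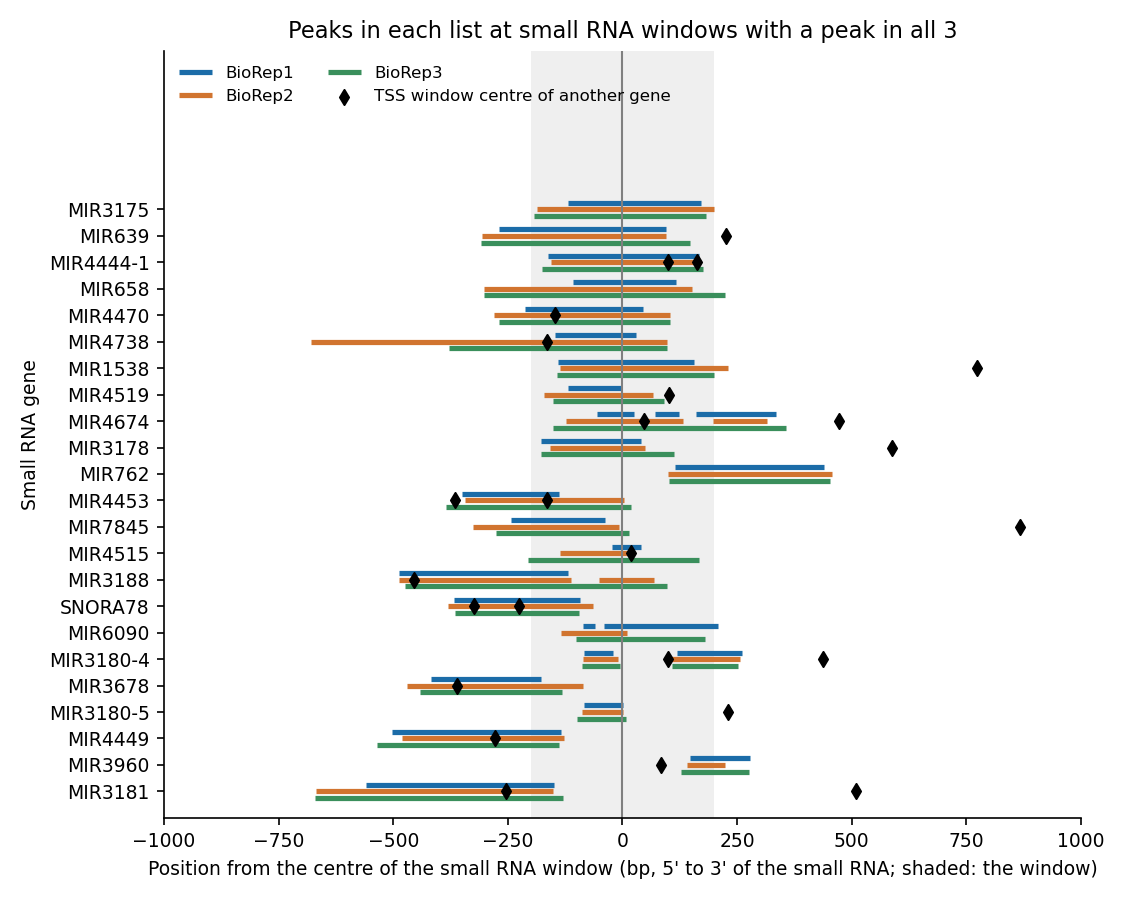
Position of the peaks of each list (coloured bars) at the 23 small RNA windows with a peak in all 3 (y axis, by gene), in bp from the window centre along the direction of the small RNA gene (x axis), with the window shaded and the TSS of windows of other genes as diamonds. At SNORA78, MIR3678, MIR4449 and MIR3181 the bars span a diamond outside the shaded window, while at MIR3175 and MIR1538 they lie on the window centre.

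At 7 genes the neighbour was denser than the small RNA window in at least 8 of the 9 libraries and lay before it. SNORA78, an H/ACA snoRNA, was the only snoRNA with a peak in all 3 lists. Its libraries ranged from 37.6 to 71.8 CPM and its mean was 56.4 ± 0.726 CPM (SD, n = 3). The window of its host SNHG9, 225 bp before it, had 102 ± 4.26 CPM, and that of RPS2, a ribosomal protein gene, 98.0 ± 3.53 CPM, both higher in 9 of 9 libraries. The peak midpoints lay 222 to 230 bp before the SNORA78 end and within 5 bp of the SNHG9 TSS. MIR3181 was the least dense of the 23 windows, at 31.0 ± 1.35 CPM, and the window of CYLD, a deubiquitinase gene, 255 bp before it had 98.0 ± 1.13 CPM. MIR4449 had 40.3 ± 5.89 CPM, and the window of its host DANCR, a long non-coding RNA, 99.0 ± 10.2 CPM. MIR3678 had 41.7 ± 6.66 CPM, and the window of GRB2, a signalling adaptor gene, 98.1 ± 7.59 CPM. In these 3 pairs the neighbour was higher in 9 of 9 libraries and the groups of library values lay apart. MIR4453 (61.4 ± 8.56 CPM) with its host MIR4453HG (93.3 ± 12.2 CPM), MIR3188 (57.5 ± 7.45 CPM) with JUND (84.1 ± 8.84 CPM), a gene for an AP-1 subunit, and MIR4738 (75.4 ± 6.25 CPM) with UNK (86.3 ± 6.38 CPM) showed the same order in 9, 8 and 8 libraries.

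At other genes the windows overlapped so far that both had about the same density. MIR4515 and BTBD1, 19 bp apart, had 57.8 ± 11.9 and 57.3 ± 12.3 CPM. MIR4470 and ASPH, a gene for an aspartate hydroxylase, had 90.5 ± 5.68 and 93.0 ± 8.47 CPM, with ASPH higher in 5 of 9 libraries. MIR3960 had 39.0 ± 3.65 CPM and the CDK9 window beside it, of a kinase that releases paused RNA polymerase II, 43.4 ± 7.47 CPM. Such pairs share reads, and their signals cannot be told apart. A second window taken for MIR3960 (ENSG00000136807.13) had no peak in any list. Its mean in edgeR was 5.01 on the log2 CPM scale. The MIR4444-1 window (96.5 ± 6.17 CPM) was a case of its own: its centre lay 163 bp from the miRNA 5′ end and 231 bp from the RefSeq start of HNRNPA3, a gene for an RNA-binding protein, and the window named for HNRNPA3 had 80.4 ± 8.11 CPM. The window counted for MIR4444-1 is annotated to another gene (ENSG00000170144.20) and lies on the strand of HNRNPA3. It may thus be a further window of HNRNPA3, which was not tested. The RefSeq start of HNRNPA3 was too far from its centre for the protein-coding match to leave it out. The mature miR-4444 lies outside the window, so its density is that of the start region beside MIR4444-1. It is counted here only because the 5′ end of MIR4444-1 was the nearest on its strand. The 23 windows with a peak in all 3 lists, the 22 miRNA windows among them and the 19 with a neighbour within 1 kb all include it.

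At MIR3178, MIR1538, MIR7845 and MIR639 the small RNA window was denser than the neighbouring window in 9 of 9 libraries. MIR3178 had 65.9 ± 2.39 CPM, and the CEMP1 window 588 bp away had 13.0 ± 2.48 CPM and no peak. MIR1538 had 73.1 ± 2.99 CPM and the window 774 bp away 11.0 ± 5.68 CPM. MIR7845, on the opposite strand within KLF7, a transcription factor gene, had 59.6 ± 7.31 CPM and the window 867 bp away 15.6 ± 2.50 CPM, although other RefSeq starts of KLF7 lay 452 and 456 bp from it. MIR639 had 102 ± 7.02 CPM, in libraries from 88.8 to 133 CPM, and lay 17 bp before a RefSeq start of TECR, a gene for an enzyme of fatty acid elongation. The neighbouring window 227 bp from MIR639 had 52.2 ± 5.62 CPM. At MIR4674 and MIR4519 the neighbours differed. MIR4674 had 66.9 ± 7.05 CPM and lay 211 bp before the RefSeq start of NOTCH1, a receptor gene, whose stretch above holds its mature sequence. An overlapping window 47 bp away had 73.9 ± 4.78 CPM and was higher in 7 of 9 libraries, and another, 473 bp away, had 31.3 ± 5.66 CPM and was lower in all 9. MIR4519 had 69.7 ± 3.63 CPM and the overlapping window 101 bp away 63.5 ± 2.06 CPM, higher in 1 of 9 libraries.

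The MIR3180 genes lie at 5 places on chromosome 16, and their windows fell into 2 sets. MIR3180-4 had 45.8 ± 2.44 CPM, with 21 to 43 reads per library, and MIR3180-5 had 40.4 ± 1.37 CPM, with 16 to 35 reads, and both had a peak in all 3 lists. The windows of MIR3180-1, MIR3180-2 and MIR3180-3 were listed at 0 reads in all 9 libraries. Their neighbours differed. The window 99 bp from MIR3180-4 had 51.4 ± 1.17 CPM and a peak in all 3 lists, and was higher than MIR3180-4 in 8 of 9 libraries. The neighbour of MIR3180-5, PKD1, the gene of a membrane protein of the kidney tubule, had 16.8 ± 2.11 CPM and no peak, and was lower in 9 of 9. How the authors treated reads that match several places is not given in the sources used here, so the values of all 5 are uncertain.

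Windows listed at 0 in every library numbered 85: 54 of miRNA genes (2.95%), 13 of snoRNA genes (1.65%) and 18 of snRNA genes (21.7%). Among the 43 such miRNA windows with a hairpin in RefSeq, 39 had a hairpin identical to that of another gene. Among all 1492 miRNA windows with a hairpin, 68 did (4.56%). The other 29 windows with an identical hairpin did have reads. Whether the mapping of reads with several matches leaves windows empty was not tested, and the hairpin comparison covers miRNA windows only.

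Small RNA windows close to another TSS held more reads. With another gene's TSS window within 1 kb (311 windows) the mean was 16.4 ± 0.489 CPM (SD, n = 3), and without one (2390 windows) 8.70 ± 0.478 CPM. The biological replicates gave ratios of 1.84, 1.89 and 1.93, a mean of 1.89 ± 0.0474. It was above 1 in 9 of 9 libraries, between 1.80 and 1.98. The exact sign-flip permutation test over the 3 biological replicates, two-sided, gave p = 0.25, the smallest that 3 pairs allow. Without the windows that had a peak the ratio was 1.37 ± 0.0135. The 132 windows that overlap a neighbour's window share its reads by construction, and without them the ratio was 1.59. By class, over all windows, the ratio was 1.89 for miRNA, 1.63 for snoRNA and 2.41 for snRNA windows, the last with 13 windows near another TSS. A peak in all 3 lists was found in 19 of the 311 (6.11%, 3.95 to 9.34%) and in 4 of the 2390 (0.167%, 0.0651 to 0.430%).

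The change was graded with distance. Of the 56 windows whose neighbour lay within 200 bp, 9 had a peak in all 3 lists, of the 104 from 200 to 500 bp 7, and of the 151 from 500 to 1000 bp 3. From 1000 to 2000 bp it was 1 of 175, from 2000 to 5000 bp 3 of 459, and beyond that none of 889 and none of 867 windows. The medians of the same groups fell from 14 CPM through 12.8, 10.9, 10.6, 8.99 and 7.91 to 7.08 CPM. Nearness to a TSS did not make small RNA windows equal to lncRNA windows. Within 1 kb of another TSS lncRNA windows had 32.1 ± 0.963 CPM, 1.96 ± 0.117 times the small RNA mean, and 26.5% had a peak in all 3 lists. Farther away they had 11.7 ± 0.193 CPM, 1.35 ± 0.0514 times the small RNA mean, and 2.49% had such a peak. Both differences held in 9 of 9 libraries, with p = 0.25 in the same exact permutation test, the smallest it allows.

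**Figure D4:**
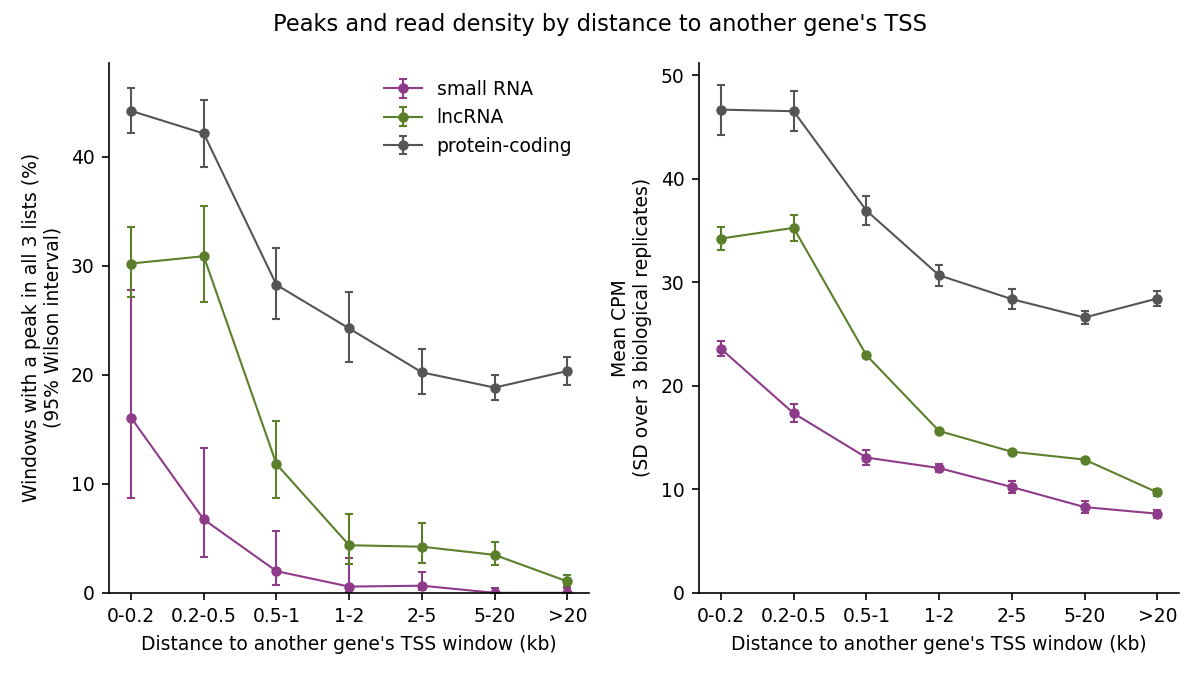
Share of windows with a peak in all 3 lists (left, %, with 95% Wilson intervals) and mean read density (right, CPM, with SD over 3 biological replicates) by distance to the nearest TSS window of another gene (x axis, kb), for small RNA, lncRNA and protein-coding windows. The small RNA line falls from 16.1% at under 0.2 kb to 0 beyond 5 kb, while protein-coding windows stay at 20.3% even beyond 20 kb.

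The share with a peak also differed with what the neighbour carried. Of the 311 windows near another TSS, 59 had a neighbour window with a peak in all 3 lists, and 15 of these had one themselves (25.4%, 16.1 to 37.8%), with a mean of 30.4 ± 0.300 CPM. The other 252 had one in 4 cases (1.59%, 0.619 to 4.01%), with a mean of 13.1 ± 0.547 CPM. Overlapping windows share peaks, which raises the first share by construction. By arrangement, a peak in all 3 lists was found in 8 of 71 windows with the neighbour's TSS downstream on the opposite strand, 4 of 79 with it upstream on the opposite strand, 4 of 111 with it upstream on the same strand and 3 of 50 with it downstream on the same strand. The Wilson intervals of these 4 shares overlapped.

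Peaks in all 3 lists were also set beside host genes. Of all 2701 windows, 1393 (51.6%) lay in the body of a RefSeq protein-coding or lncRNA gene on the same strand, and 648 (24.0%) lay outside any. A further 396 lay in a gene whose strand was not known here, and 264 only in one on the opposite strand. Of the 23 windows with a peak in all 3 lists, 8 (34.8%) lay in a same-strand host and 12 (52.2%) outside any gene body. Another 2 lay in a gene of unknown strand, SNORA78 in SNHG9 and MIR6090 in ETS1, and 1 only in an opposite-strand gene. The same-strand shares are therefore lower limits. The same-strand hosts were CHD2, TECR, ANKRD54, BCL7C, MIR762HG, MIR4453HG, DANCR and CYLD. An snRNA window lay outside gene bodies in 62 of 83 cases (74.7%), a miRNA window in 22.1% and a snoRNA window in 23.2%.

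Hairpins of miRNAs with peaks were rich in G and C. A RefSeq hairpin was matched for 1478 of 1815 miRNA genes. The 21 matched genes with a peak in all 3 lists had a median G and C content of 72.6%, from 44.7% at MIR3678 to 87.9% at MIR3960. The 16 with a peak in 1 or 2 lists had a median of 73.9% and the 1441 without a peak 50.9%. A peak in all 3 lists was found at 6 of 23 hairpins of 80% or more (26.1%), 10 of 90 from 70 to 80% (11.1%), 2 of 260 from 60 to 70%, 2 of 439 from 50 to 60%, 1 of 409 from 40 to 50%, none of 221 from 30 to 40% and none of 36 under 30%. The median density rose over the same groups from 6.03 CPM under 30% to 23.4 ± 2.74 CPM (SD, n = 3) at 80% or more. Among windows with no TSS window of another gene within 1 kb, no hairpin under 70% had such a peak. It was found at 2 of 10 hairpins of 80% or more and 2 of 58 from 70 to 80%. Among these, MIR762 and MIR658 did have a RefSeq start of another gene within 1 kb. Spearman's rho between hairpin content and mean CPM was 0.40 over 1478 genes and 0.37 over the 1441 without a peak. Over the 1303 with no TSS window of another gene within 1 kb it was 0.38. These points share their libraries and, for clustered genes, their surroundings. Base composition also affects amplification and sequencing, and without the inputs its part in the density cannot be told apart from that of BG4.

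**Figure D5:**
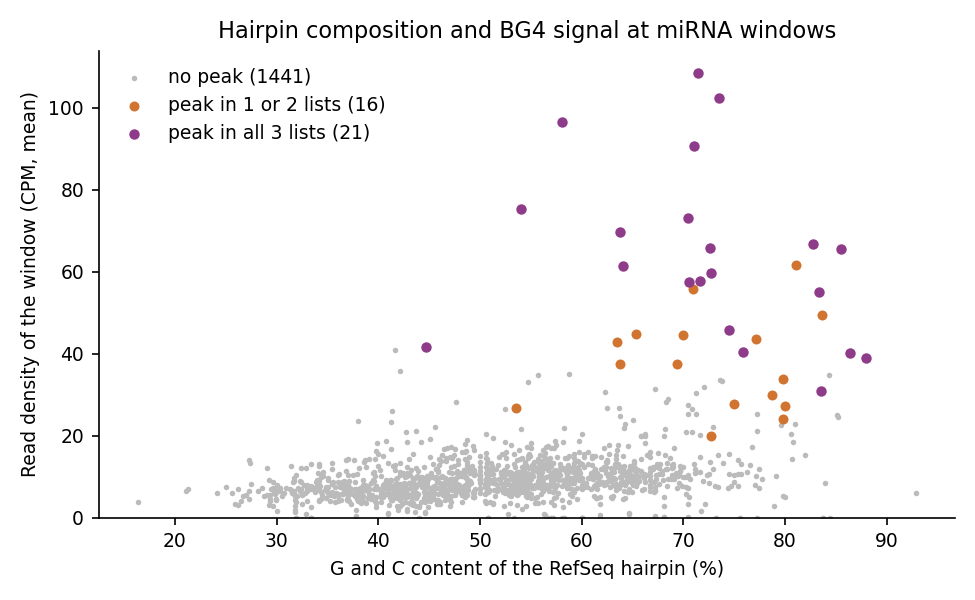
Mean read density of miRNA windows (y axis, CPM) against the G and C content of the RefSeq hairpin (x axis, %), 1 point per gene, coloured by the number of lists with a peak. The 21 genes with a peak in all 3 lists lie mostly right of 70%, with MIR3678 at 44.7% as the lowest, and most of the 1441 genes without a peak stay under 20 CPM.

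The G-quadruplex motif itself was no common feature of the hairpins. It was present in 1 of the 21 hairpins with a peak in all 3 lists (MIR4674), 1 of the 16 with a peak in 1 or 2 (MIR92B) and 43 of the 1441 without one (2.98%). In the promoters of other genes within 1 kb it was more frequent in every group: 9 of 26 stretches beside windows with a peak in all 3 lists (34.6%), 9 of 28 beside windows with a peak in 1 or 2 (32.1%) and 51 of 187 beside windows without (27.3%). Of all 35116 promoter stretches of the same length 25.0% held it, and of 22199 protein-coding ones 30.4%. The median G and C content of these groups was 70%, 67.8%, 62.7%, 58.7% and 62.3%. The hairpins are shorter than the 300 base stretches, so the shares of the 2 kinds of sequence are not comparable. Nor are the stretches all separate promoters: the 26 came from 20 genes, the 28 from 23 and the 187 from 162. Some of them overlap, as those of CYLD do. Some of the 26, such as that of CYLD-AS1, held no base in peaks of all 3 lists.

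A peak in any list was found in 2.40% of all miRNA windows, and each list of well-known miRNA families was too small to be told apart from that share. Among 12 let-7 genes, tumour-suppressing miRNAs, none had a peak in all 3 lists and 1 had a peak in 1 list: MIRLET7I at 26.9 ± 6.30 CPM, followed by MIRLET7A3 at 12.8 ± 2.79 CPM with none. The median of the list was 8.52 CPM. The 15 genes of the growth-promoting miR-17 cluster family had no peak and the highest median of the miRNA lists, 13.5 ± 2.41 CPM, led by MIR20A at 23.6 ± 2.85 and MIR19B1 at 21.2 ± 1.68 CPM, whose windows overlap. The 5 genes of the epithelial miR-200 family had a median of 10.7 CPM, with MIR200B at 13.1 ± 3.08 and MIR141 at 12.1 ± 3.21 CPM. The 9 miRNAs of embryonic stem cells had 6.19 CPM, with MIR302C at 7.55 ± 0.404 and MIR302B at 7.16 ± 1.27 CPM. The 9 genes of miR-34 and miR-15/16 had 6.61 CPM, with MIR195 at 15.1 ± 4.53 and MIR497 at 12.3 ± 3.52 CPM. The 20 tissue-restricted miRNAs of muscle, liver, neurons and blood had 8.96 CPM, with MIR124-3 at 15.2 ± 6.18 and MIR9-1 at 14.98 ± 1.24 CPM. The 45 genes of the chromosome 19 miRNA cluster, which is active in placenta, had 4.83 CPM, with MIR520E at 7.60 ± 2.40 and MIR498 at 7.05 ± 2.97 CPM. None of these last 6 gene lists had a peak in any peak list, and 0 of 45 in the chromosome 19 cluster allows a share of up to 6.67%. The shorter lists allow more, from 15% for the tissue-restricted miRNAs to 60% for the miR-200 family.

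Among miRNA windows without any peak the densest was MIR4521, at 40.9 ± 1.57 CPM (SD, n = 3), higher than MIR3181 or MIR3960 with peaks in all 3 lists. MIR5087 had 35.9 ± 4.0 CPM, MIR6132 35.1 ± 0.974, MIR6815 34.9 ± 5.03 and MIR4734 34.9 ± 1.76 CPM. The median miRNA window without a peak had 8.36 CPM. Among windows with a peak in 1 or 2 lists, the densest were MIR4741 at 61.7 ± 10.5 CPM and MIR3917 at 55.9 ± 6.71 CPM, both absent from the BioRep1 list.

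The snoRNA windows had the lowest median of the 3 small RNA classes. Of 279 C/D box snoRNAs, which guide ribose methylation, 2 had a peak in any list and the median was 6.48 ± 0.706 CPM. SNORD104 led with 52.1 ± 3.36 CPM and peaks in BioRep1 and BioRep2 that lay 158.5 and 160 bp before it and touched the window of its host SNHG25. SNORD32A, inside the ribosomal protein gene RPL13A, had 28.3 ± 4.16 CPM and a peak in the BioRep2 list that covered 52 bp. Of 148 H/ACA box snoRNAs, which guide pseudouridine formation, SNORA78 alone had a peak, and the median was 9.18 ± 0.702 CPM. SNORA16A followed at 28.1 ± 2.38 CPM without a peak. A further snoRNA window, LOC124900430, had 20.2 ± 4.58 CPM, and its peaks in BioRep2 and BioRep3 covered only 12 and 14 bp of it. The imprinted repeats were low: 78 windows of SNORD115 and SNORD116 on chromosome 15 had a median of 2.87 ± 1.04 CPM, with SNORD115-23 highest at 5.44 ± 2.02 and SNORD115-27 next at 4.89 ± 2.11 CPM. The 39 windows of SNORD113 and SNORD114 on chromosome 14 had 4.87 ± 0.725 CPM, with SNORD114-14 at 7.63 ± 1.64 and SNORD113-8 at 7.27 ± 0.612 CPM. Neither had a peak in any list, which allows shares of up to 3.85% and 7.69%, where 0.509% of all snoRNA windows had one. The 7 snoRNAs transcribed from promoters of their own had 0.733 ± 0.859 CPM as their median and no peak, with SNORD118 at 23.9 ± 6.41 and SNORD13 at 12.6 ± 1.03 CPM, so this list was split. The lowest window of this list and that of the chromosome 15 repeats had 0 CPM. Whether the handling of reads with several matches lowers the values of such snoRNA lists was not tested. The list of Cajal body RNAs had 0 windows. The other snoRNA windows highest in density without a peak were SNORA50C at 26.2 ± 3.20 CPM, SNORD96A at 25.7 ± 3.45 CPM and SNORD43 at 25.1 ± 2.24 CPM.

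Of the 3 classes, snRNA windows had the highest share with a peak in any list and none in all 3. Their 8 windows stood for 6 positions, since RNU11 and RNU12 each had a pair of windows at the same place. RNU1-1, of the U1 snRNA, had 41.8 CPM in BioRep1, 36.1 in BioRep2 and 30.5 in BioRep3, and its peaks, of 67 to 80 bp, were in the BioRep2 and BioRep3 lists. The replicate without a peak was thus the densest. RNU11, of the minor spliceosome, had 44.2 ± 9.39 CPM, with 30, 23 and 20 reads in BioRep1, 34, 38 and 31 in BioRep2 and 23, 25 and 17 in BioRep3, and a peak of 238 bp in BioRep2 alone. BioRep2 was the highest of the 3 there, and the libraries of BioRep3 were below all of BioRep2. RNU12 had 27.5 ± 5.14 CPM, and its BioRep2 peak had its midpoint 20.5 bp from the TSS of POLDIP3 and covered 17 bp of the window. RNU7-1, of the U7 RNA that acts in histone mRNA processing, had 27.6 ± 7.19 CPM and a BioRep2 peak of 7 bp. RNU6-9, of the U6 snRNA, had 26.3 ± 3.50 CPM and a BioRep3 peak of 247 bp centred 47 bp from the MED16 TSS. RNVU1-15 had 23.9 ± 7.11 CPM and a BioRep2 peak of 2 bp.

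A peak in any list was found in 9.64% of snRNA windows and 15.8% of all nuclear windows, and the snRNA gene lists are small beside these shares. It was found in 2 of the 29 spliceosomal snRNA windows of RNA polymerase II (6.90%), with a median of 17.3 ± 3.61 CPM. RNU1-1 led them, and RNVU1-6 followed at 32.4 ± 10.7 CPM. Of the 5 minor spliceosome and U7 genes, counted by 1 window each, 3 had one (RNU11, RNU12 and RNU7-1, described above), with a median of 27.6 ± 7.13 CPM. Of the 7 snRNA genes of RNA polymerase III 1 had one (14.3%), with a median of 20.3 ± 1.69 CPM, led by RNU6-2 at 30.3 ± 5.45 CPM. All 3 medians lay above that of snRNA windows as a class, whose low quartile held the 18 windows with no reads. Among snRNA windows without a peak the next highest were RNU4-2 at 29.7 ± 5.35, RNU4ATAC at 26.8 ± 7.19 and RNVU1-30 at 26.4 ± 2.29 CPM.

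No small RNA window was called different between BioRep1, BioRep2 and BioRep3. In the quasi-likelihood test of edgeR over all 3, 0 of 17499 windows tested passed an adjusted p of 0.05 (0%), and 412 of the 2701 small RNA windows had enough reads to be tested. At an unadjusted p under 0.05 there were 33 of the 412 (8.01%), beside 7.87% of all windows tested. With the DESeq2 likelihood ratio test, run without the filter, 0 of 2616 were called. In that test 38 (1.45%) had an unadjusted p under 0.05, beside 1.44% of all windows. The smallest adjusted p, 0.158 with edgeR, belonged to RNU5B-1, of the U5 snRNA, named after its values were seen. Its libraries held 21, 8 and 19 reads in BioRep1, 9, 14 and 12 in BioRep2 and 8, 5 and 9 in BioRep3, and its CPM was higher in each BioRep1 library than in any other. BioRep3 differed from BioRep1 there by a log2 ratio of -1.47 (edgeR, adjusted p = 0.0729). All 23 windows with a peak in all 3 lists were tested, and the smallest adjusted p among them was 0.544 with edgeR, at MIR4515. These p-values measure the spread between technical libraries, because the technical libraries were the samples within each biological replicate. The labels do not say that the biological replicates were grown separately.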

How the data were processed

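BG4 ChIP-seq of HEK293 cells was read from 9 ChIP libraries, grouped into 3 biological replicates by the sample titles. The deposited values were raw read counts per 400 bp TSS window, unscaled, from GENCODE release 28 on hg38, per the file headers and names. Peaks were deposited as 3 lists, 1 for each biological replicate, of chromosome, start and end (other) without a score. Tools named in the submitters' processing notes are bedtools, MACS2, Picard, BWA and cutadapt, with the build hg38. The peak threshold, the rule joining technical libraries, the removal of marked duplicates and the handling of reads with several matches were not stated in these sources.

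Windows were named by position from RefSeq genes (GRCh38.p14). The gene table gives no strand: it was taken from promoter and miRNA tables for 1702 windows and from the window for the rest. Of 142 genes reached at both ends, 71 were settled by an exact match and 71 dropped. Windows that overlap another gene's window (132) share reads, and 9 windows repeat the position of another. A neighbour is the TSS window of another gene that is not a small RNA gene. CPM is scaled to reads in windows, averaged over technical libraries, and given as mean ± SD over biological replicates. A peak counts with 1 bp of overlap.

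edgeR 4.0.16 tested 17499 windows on the counts (quasi-likelihood, TMM, filterByExpr, Benjamini-Hochberg at 0.05). DESeq2 1.42.0 was an alternative. The fit was tested on simulated data. Python 3.11.15, pandas 2.3.3, numpy 2.4.6, scipy 1.17.1, matplotlib 3.10.9 and R 4.3.3 were used. Named genes were all windows with a peak in all 3 lists and their neighbours within 1 kb, the 5 densest of each class without a peak, and the 2 densest of each of 16 gene lists. Any other name was picked after its values were seen. Mature miRNAs and promoters came from up to 10 of the densest genes, none on chromosome 8. The windows and gene lists were chosen with earlier results of these data known.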

Additional observations from a re-analysis of the deposited data

How the results depend on the processing

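The count of small RNA windows with a peak in all 3 lists depended on the definition. It was 23, and 36 with a peak in at least 2 lists or 56 with a peak in any. Leaving out each biological replicate in turn gave 23 to 35, the highest without BioRep1. Leaving out windows that overlap another gene's window gave 8. A RefSeq 5′ end within 50 bp gave 27. That setting also narrows the protein-coding match that leaves windows out, and which step added windows was not tested. At least 50 bp of overlap gave 21 and wide peaks only gave 17. The share of these windows with another TSS within 1 kb was 82.6%. It was 56.5% when only windows named for protein-coding or lncRNA genes counted as neighbours, an alternative chosen after seeing the data. Windows with no RefSeq 5′ end matched within 200 bp had no name and were not counted there, whatever their gene. With RefSeq starts added, also chosen after seeing the data, the share was 91.3%. The ratio of mean CPM near and far from another TSS stayed above 1 in every alternative run, from 1.37 without windows that had a peak to 2.17 at 500 bp. The class medians moved by less than 1 SD in every alternative run, and 114 of 115 values of named windows did so. The exception was SNORA78, at 58.1 CPM when scaled to nuclear windows.

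With edgeR no small RNA window was called in any alternative run. Over all windows the count was 25 of 56196 without the filter on low counts and 1 each without BioRep1 technical library 1 and without BioRep3 technical library 2. The technical numbers did not pair the libraries: correlations of same-numbered libraries ran from -0.0146 to 0.0262 over 9 pairs, and 3 of 9 libraries correlated best with their own number. With the technical number as a replicate block 0 small RNA windows were called with edgeR. An unadjusted p under 0.05 was then found for 29 of them (7.04%), beside 7.69% of all windows tested. Without the block it was found for 33 small RNA windows. Depth limits single windows: a median small RNA window held 3 to 7 reads per library.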
